A study of Mus musculus with 6 samples.

Results

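The 5 genes described here are Onecut1, Onecut2, Cux1, Cux2 and Satb1, which encode transcription factors with cut-type DNA-binding domains. They were taken as the genes whose symbol was the only one given for a probe set in the array annotation, and they made up 5 of the 18194 genes measured. All 5 were found, with 22 probe sets among them, and the brightest probe set, by its mean on the 6 arrays, stood for each gene. The members were selected on the difference between labelled mutant and labelled control in these same arrays, which was known when they were proposed. Their differences and calls are therefore a description and not independent evidence.

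Expression was measured in branchial arch 1, the embryonic jaw arch, of mice at embryonic day 11.5. The 3 embryos labelled control were of genotype Ezh2lox/lox, and the 3 labelled mutant were Wnt1Cre Ezh2lox/lox. Both groups thus carried conditional alleles of Ezh2, the histone methyltransferase of Polycomb repressive complex 2, and the groups differed by the Wnt1-Cre transgene. Wnt1-Cre acts in the neural crest lineage, from which most arch mesenchyme derives. The epithelium, muscle precursors, endothelium and blood of the arch have other origins. The labels call the samples biological replicates and state that a single arch was taken per embryo. No label speaks of pooling, and each array is called an embryo below on that basis.

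Cut-class proteins bind DNA through one or several cut domains. These sit beside a homeodomain. Onecut1 (hepatocyte nuclear factor 6) and Onecut2 act in liver, pancreas, retina and motor neurons. Cux1 is expressed in many tissues and often represses its targets, while Cux2 is best known in upper-layer cortical neurons and in spinal interneurons. Satb1, known from thymocytes, binds AT-rich DNA and organises chromatin loops. Polycomb repressive complex 2 places the repressive mark on histone H3 at CpG-rich promoters of many developmental genes.

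Signals are on a log2 scale, with 1 value per probe set and array. The median was 5.81 and the 25th percentile 4.33 on every array, and values under the latter hold mostly background. Differences are labelled mutant minus labelled control, with limma's moderated standard error (SE), and a gene was called at a Benjamini-Hochberg adjusted p under 0.05 over all genes. Across all 18194 genes 1007 (5.53%) were called, 783 of them (4.3%) lower and 224 (1.23%) higher in the arches labelled mutant. That count lay between 435 and 1021 when 1 array was left out, with 435 without labelled-mutant embryo 3, 481 without labelled-mutant embryo 2 and 551 without labelled-control embryo 2. Ezh2 read 11.63 ± 0.15 and 11.66 ± 0.01 (SD, n = 3 each), and whether its probe set reads the deleted exons was not determined. The 3 labelled-control embryos had the male and the 3 labelled-mutant embryos the female pattern of Xist, Kdm5d, Eif2s3y and Uty. Genotype label and sex cannot be told apart in any value below. Of 12 arch mesenchyme markers 10, among them Prrx1 and Twist1, lay above the median on every array.

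Onecut2 and Cux2 fell in the labelled-mutant arches, whereas Onecut1, Cux1 and Satb1 were not called. At gene level Onecut2 fell by 2.64 (SE 0.22) and Cux2 fell by 1.33 (SE 0.14). The remaining differences were -0.20 (SE 0.14) for Onecut1, 0.23 (SE 0.11) for Cux1 and 0.29 (SE 0.11) for Satb1. Thus 2 of 5 members were called, both lower, beside the 4.3% of all genes called lower. Onecut2 was thus called where Onecut1 was not, and Cux2 where Cux1 was not. Onecut1 lay under the array median on every array, where a fall like that of Onecut2 could hardly be seen. Without labelled-control embryo 1, Cux1 was called as well, in the upward direction. The difference between paralogs was not tested. In whole arches, fewer expressing cells and less RNA per cell cannot be told apart.

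**Figure D1:**
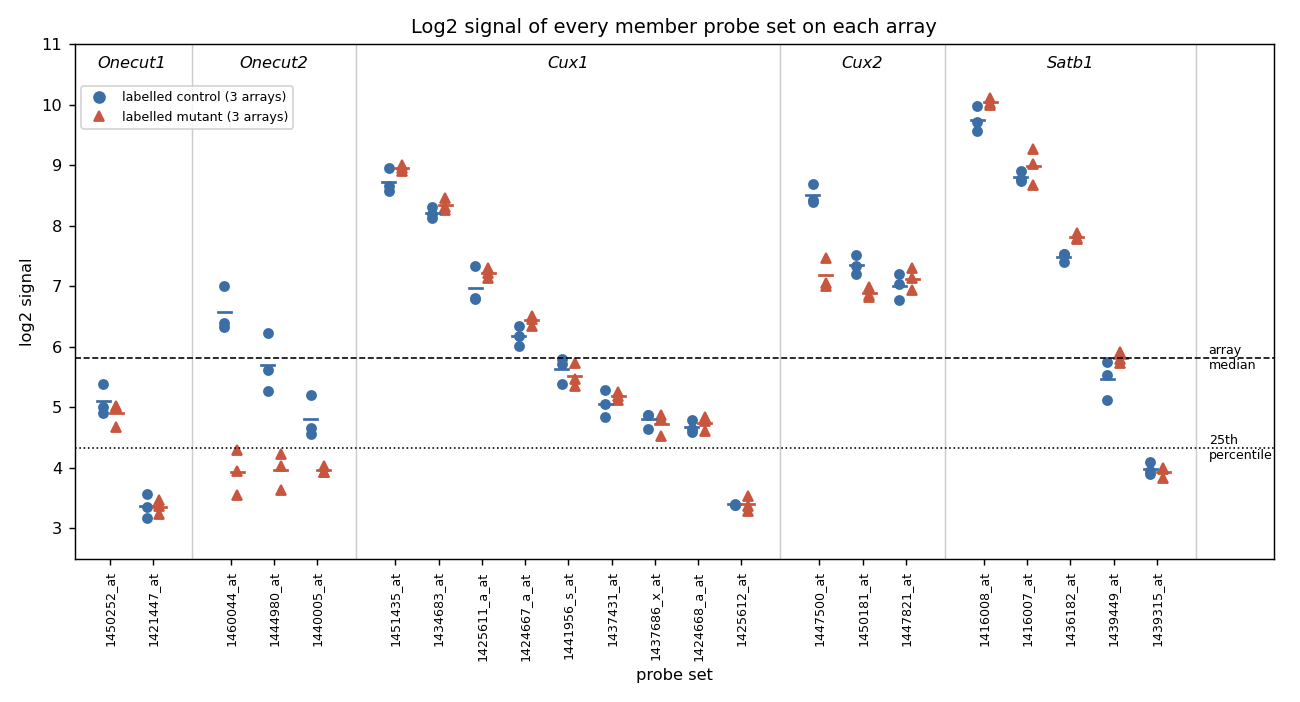
Log2 signal (vertical axis) of the 22 probe sets of the 5 genes (horizontal axis), with 3 labelled-control arrays as circles, 3 labelled-mutant arrays as triangles and group means as bars. All 3 Onecut2 probe sets and 2 of 3 Cux2 probe sets have every labelled-mutant array below every labelled-control array, and the dotted line marks the 25th percentile of 4.33.

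Onecut2 was expressed in the labelled-control arches and close to background in the labelled-mutant arches. Its brightest probe set, 1460044_at, read 6.32, 6.38 and 7.01 in the labelled-control embryos and 3.55, 3.95 and 4.29 in the labelled-mutant embryos. The groups were far apart, with the lowest labelled-control embryo above the array median and the highest labelled-mutant embryo under the 25th percentile. The means were 6.57 ± 0.38 and 3.93 ± 0.37 (SD, n = 3 each), a 6.25-fold difference. That fold depends on how the scale behaves near background, where the labelled-mutant signals lay. In the order of all 18194 genes from the largest fall upward, Onecut2 stood at place 29.

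Both other Onecut2 probe sets also separated the groups, with smaller differences. Probe set 1444980_at read 5.27, 6.22 and 5.62 in the labelled-control embryos against 3.64, 4.23 and 4.03 in the labelled-mutant embryos, a difference of -1.74 (SE 0.24). Probe set 1440005_at read 4.55, 5.20 and 4.66 against 3.93, 3.94 and 4.03, a difference of -0.84 (SE 0.16). On all 3 probe sets the labelled-mutant embryos lay under the 25th percentile, so that the falls differed mainly through the labelled-control means of 6.57, 5.70 and 4.805. The labelled-control embryos did not keep one order, since embryo 3 was highest on the brightest probe set and embryo 2 on both others. With the mean of the 3 probe sets, the difference was -1.74 (SE 0.16) in place of -2.64.

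Onecut1 showed no such difference and was dim in both groups. Its brighter probe set, 1450252_at, read 4.999, 5.39 and 4.91 in the labelled-control and 4.68, 5.02 and 5.01 in the labelled-mutant embryos, so that the groups overlapped below the array median. The dimmer probe set, 1421447_at, read between 3.17 and 3.56 on all 6 arrays, under the 25th percentile, with a difference of -0.01 (SE 0.12). Of the 2 probe sets of Onecut1, 0 were called by limma and 0 had an unadjusted p under 0.05. Such signals cannot tell whether Onecut1 differs at low expression. Onecut3, the remaining Onecut gene and no member of the set, read 4.11 ± 0.14 against 4.16 ± 0.20, also under the 25th percentile on every array (limma, Benjamini-Hochberg adjusted p = 0.890).

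Cux2 was well expressed in both groups and lower in the labelled-mutant arches. Its brightest probe set, 1447500_at, read 8.69, 8.43 and 8.39 in the labelled-control embryos and 7.05, 7.01 and 7.47 in the labelled-mutant embryos. All 6 values lay above the array median, so that the fall from 8.50 ± 0.17 to 7.18 ± 0.26 (SD, n = 3 each), a 2.51-fold difference, does not rest on the low end of the scale. It stood at place 130 of all genes by size of fall.

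The 3 Cux2 probe sets did not give the same difference. Probe set 1450181_at read 7.52, 7.20 and 7.34 against 6.98, 6.82 and 6.85, lower by 0.47 (SE 0.10) without overlap, and was not called when all 45101 probe sets were adjusted together. Probe set 1447821_at read 7.20, 6.77 and 7.04 against 7.14, 7.30 and 6.94, a difference of 0.12 (SE 0.14) with overlapping groups. Which transcripts or which part of the gene each probe set reads was not determined here. With the mean of the 3 probe sets, Cux2 fell by 0.56 (SE 0.09), less than its brightest probe set shows.

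**Figure D2:**
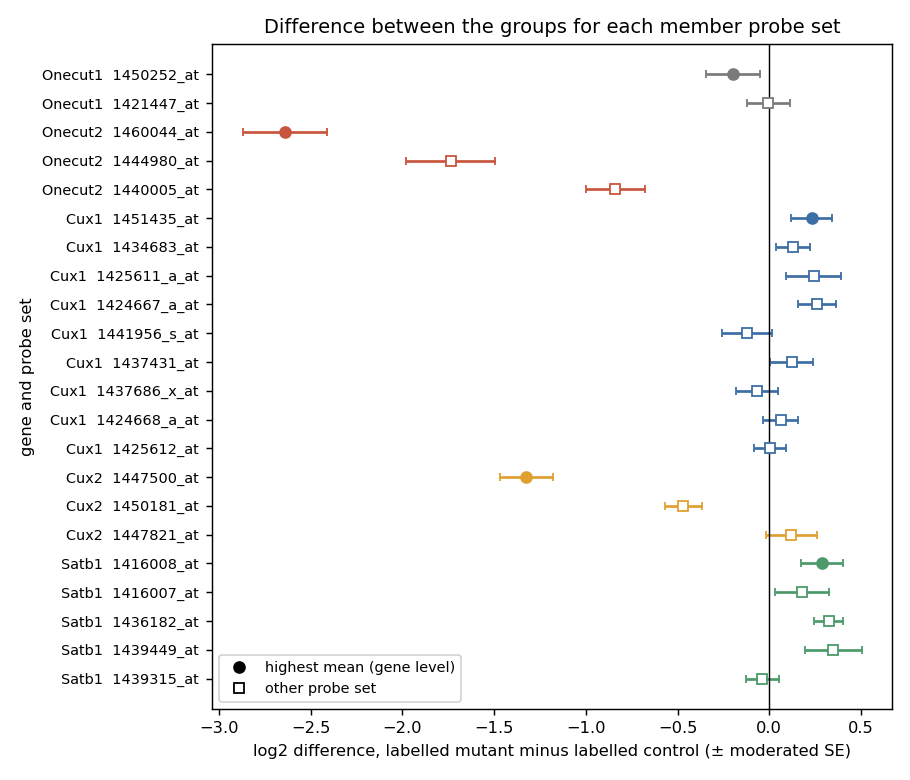
Log2 difference, labelled mutant minus labelled control, with its moderated standard error (horizontal axis) for each of the 22 probe sets (vertical axis), where filled circles are the probe sets that stand for the gene. The Onecut2 probe sets run from -2.64 to -0.84, the Cux2 probe sets from -1.33 to 0.12, and all others from -0.20 to 0.35.

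Cux1, the paralog of Cux2, kept a similar signal in both groups. Its brightest probe set, 1451435_at, read 8.95, 8.57 and 8.65 in the labelled-control and 9.003, 8.96 and 8.90 in the labelled-mutant embryos. Labelled-control embryo 1 lay among the labelled-mutant embryos, and the means were 8.72 ± 0.20 and 8.95 ± 0.05 (SD, n = 3 each). Without that embryo the difference was 0.35 (SE 0.08), and Cux1 was then called. Over its 9 probe sets the differences ran from -0.12 to 0.26 with a median of 0.12, and 7 of them were above 0. Of these probe sets 0 were called by limma and 1 had an unadjusted p under 0.05. That probe set, 1424667_a_at, was also the only one of the 9 whose groups did not overlap, at 6.01, 6.18 and 6.34 in the labelled-control and 6.51, 6.46 and 6.34 in the labelled-mutant embryos. Only 4 of the 9 probe sets lay above the array median on every array, and 1 lay under the 25th percentile throughout.

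Satb1 lay slightly higher in the labelled-mutant arches without being called. Probe set 1416008_at, the brightest, read 9.98, 9.57 and 9.71 in the labelled-control and 9.98, 10.10 and 10.03 in the labelled-mutant embryos. The groups did not overlap but nearly touched, since labelled-control embryo 1 and labelled-mutant embryo 1 differed by less than the spread within either group. Without labelled-control embryo 1 the difference was 0.40 (SE 0.08), and Satb1 was then called. Probe set 1436182_at separated the groups more widely, at 7.54, 7.41 and 7.53 against 7.78, 7.79 and 7.88, a difference of 0.33 (SE 0.08). Probe set 1416007_at had a difference of 0.18 (SE 0.15) and 1439449_at one of 0.35 (SE 0.15), both with overlapping groups. The dimmest, 1439315_at, lay under the 25th percentile on every array. Of the 5 probe sets 0 were called by limma, 2 had an unadjusted p under 0.05, and 4 had a difference above 0.

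Counted over the whole set, 5 of the 22 probe sets had every labelled-mutant array below every labelled-control array, and 3 had them all above. Over all 45101 probe sets these shares were 8.8% and 11.6%, or 20.4% in either direction. When all probe sets were adjusted together, 4 of the 22 were called, all lower, namely the 3 of Onecut2 and the brightest of Cux2, beside 1.77% of all probe sets called lower and 2.14% called in either direction. At gene level the groups did not overlap for Onecut2, Cux2 and Satb1, beside 24.9% of all genes. The median difference of the 22 probe sets was 0.03, and that of all genes was 0.02.

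**Figure D3:**
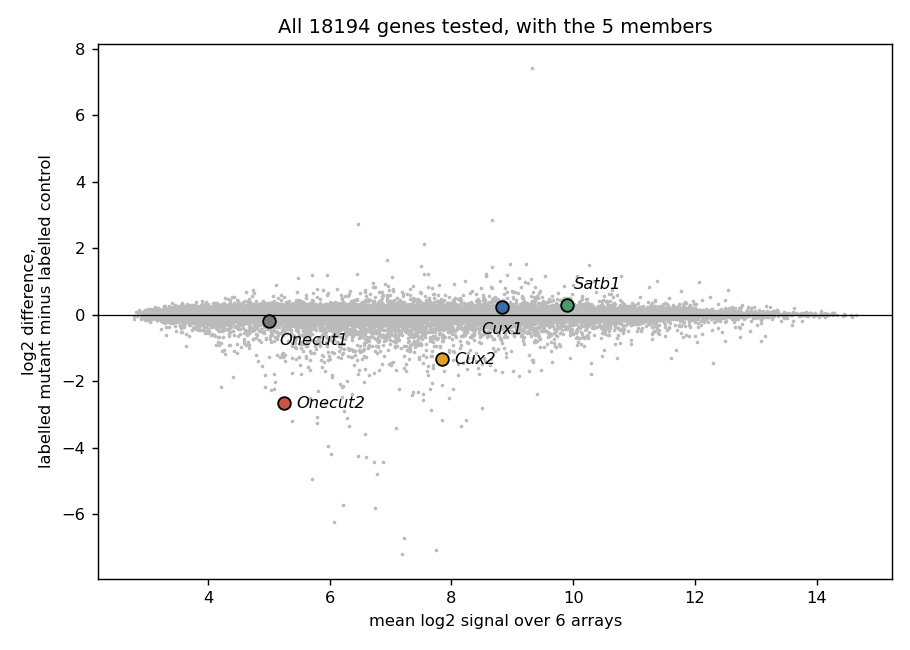
Log2 difference, labelled mutant minus labelled control (vertical axis), against the mean log2 signal over 6 arrays (horizontal axis) for all 18194 genes (grey), with the 5 members in colour. Onecut2 at -2.64 and Cux2 at -1.33 lie below the main cloud of genes, while Onecut1, Cux1 and Satb1 lie within it.

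The sequences before the annotated starts of Cux1 and Cux2 are shown because these paralogs, both on chromosome 5, differed in their values, and because CpG density at a promoter is a sequence feature known to go with Polycomb binding. RefSeq windows (GRCm38.p6) were matched for 4 of the 5 members, namely Onecut1, Cux1, Cux2 and Satb1. Each sequence below gives the 250 bases before a start, on the minus strand, 5′ to 3′, with CpG dinucleotides in capitals. The first start of Cux2 (chr5:122049852-122050101), the second (chr5:122047826-122048075) and the start of Cux1 (chr5:136565982-136566231) follow in that order.
Cux2 start 1: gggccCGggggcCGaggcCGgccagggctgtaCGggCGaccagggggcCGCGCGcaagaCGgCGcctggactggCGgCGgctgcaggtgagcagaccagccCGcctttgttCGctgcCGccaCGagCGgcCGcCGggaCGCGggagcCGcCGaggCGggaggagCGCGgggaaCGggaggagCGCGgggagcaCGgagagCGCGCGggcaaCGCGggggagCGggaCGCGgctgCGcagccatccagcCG
Cux2 start 2: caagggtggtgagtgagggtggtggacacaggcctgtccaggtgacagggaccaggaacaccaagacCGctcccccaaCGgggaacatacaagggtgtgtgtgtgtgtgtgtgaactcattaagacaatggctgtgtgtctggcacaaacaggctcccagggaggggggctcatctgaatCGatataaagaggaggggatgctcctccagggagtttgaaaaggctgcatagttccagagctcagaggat
Cux1 start 1: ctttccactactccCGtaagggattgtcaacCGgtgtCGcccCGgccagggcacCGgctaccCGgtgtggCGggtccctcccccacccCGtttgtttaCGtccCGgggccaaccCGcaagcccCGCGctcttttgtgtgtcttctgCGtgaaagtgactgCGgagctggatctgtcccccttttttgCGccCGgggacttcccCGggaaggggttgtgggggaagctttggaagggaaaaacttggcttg

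The windows of Cux2 differed widely from each other. The first held 40 CpG dinucleotides, more than 98.7% of 32851 windows of the same length, and the second held 3. The Cux1 window held 18, more than 78.3% of all windows, whose median was 6. Onecut1, dim in both groups, had 31 in its window, and among the 5 starts of Satb1 the count ran from 3 to 41. High counts lay before the first start of Cux2, which fell, and before Onecut1 and the second start of Satb1, which were not called. No window was matched for Onecut2. Whether CpG content bears on the differences was not tested. Which start is used in the arch cannot be read from these arrays.

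Cut-domain proteins are known to bind short sites such as ATCGAT, which reads the same on both strands and occurred in 0.728% of all windows. The related letters ATTGAT, counted on either strand, occurred in 6.72%. Among the 9 windows of the members ATCGAT was found in 1, the second window of Cux2, where it begins 72 bases before the start (chr5:122047880-122047909, minus strand, motif in capitals).
Cux2 start 2 motif: gggctcatctgaATCGATataaagaggagg
The other motif was found in 1 of the 9, the fifth window of Satb1, on the opposite strand. A match describes these letters only, and binding was not measured.

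**Figure D4:**
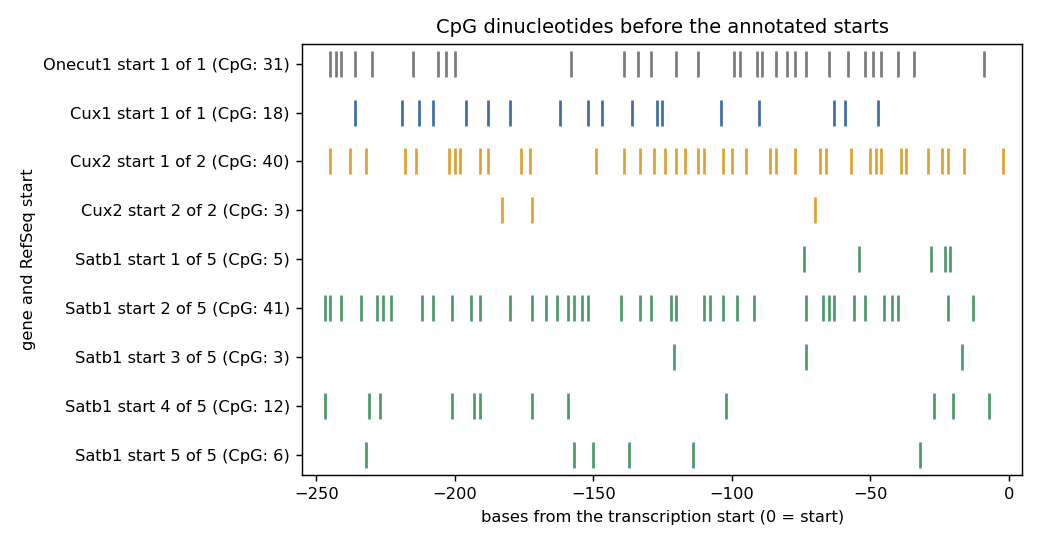
Position of each CpG dinucleotide as bases from the transcription start (horizontal axis) in the 9 RefSeq windows of Onecut1, Cux1, Cux2 and Satb1 (vertical axis). The first start of Cux2 carries 40 and its second 3, and the second of 5 Satb1 starts carries 41.

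The genes most like Onecut2 and Cux2 over the 6 arrays were sought among the genes whose arrays spanned at least 1 on the log2 scale, which left 779 candidates for each. For Onecut2 these were Wscd2 (Pearson r = 0.996), A330001L22Rik (0.994) and Celf5 (0.993), the last an RNA-binding protein gene of the CELF family. For Cux2 they were Otx2 (0.985), a homeobox gene of forebrain and midbrain, Rec8 (0.984), a subunit of meiotic cohesin, and Aplp1 (0.983), a neuronal relative of the amyloid precursor gene. Otx2 read 5.69, 5.60 and 5.65 in the labelled-control and 4.29, 4.35 and 4.49 in the labelled-mutant embryos, and Celf5 read 5.97, 6.24 and 6.59 against 4.34, 4.35 and 4.84. All 6 genes were lower in every labelled-mutant embryo, so that these correlations mostly restate the split between groups and are given as a description.

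Among genes that act with Onecut factors in neurons, 2 of 17 measured fell and 0 rose by limma. Over all genes 4.3% were called lower and 1.23% higher, and these shares stand beside every list below. Isl1, which specifies motor neurons and is itself controlled by Onecut factors there, fell by 0.85 (SE 0.12; limma, Benjamini-Hochberg adjusted p = 0.0049). Its other probe set changed by only -0.10, and Isl1 was not called with the mean of both (limma, Benjamini-Hochberg adjusted p = 0.0608) or with signals floored at the 20th percentile (0.0613). The floor left the difference of Isl1 unchanged, at -0.85. Nkx6-1, a progenitor gene of the ventral neural tube, fell by 0.54 (SE 0.11; limma, Benjamini-Hochberg adjusted p = 0.0248) from 4.92 to 4.38, near the low end. Leaving out single arrays ended the call of Nkx6-1 in 5 of 6 cases, all except labelled-control embryo 3, at limma's Benjamini-Hochberg adjusted p of 0.0642 to 0.0965. With the replicate block it stood at 0.0592. Mnx1, a motor neuron gene, had a difference of -0.34 that did not pass, and it was among 6 genes of this list under the 25th percentile on every array. The list's median difference was 0.003 and 0 had an unadjusted p under 0.05 in the upward direction, against 3 downward.

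Of 13 genes of the endoderm, where Onecut1 acts with Foxa and Hnf factors, 0 were called by limma, and 3 had an unadjusted p under 0.05, all lower. The 3 with the largest moderated t were the pioneer factor gene Foxa1 (-0.42), Prox1 (-0.25) and Gata6 (-0.30). Prox1 was among 4 of the 13 genes under the 25th percentile on every array. Foxa1 was called without labelled-control embryo 3 (limma, Benjamini-Hochberg adjusted p = 0.0305), and Gata6 with the mean of its probe sets (0.0124), which ran from -1.36 to 0.02. The list's median difference was 0.02. The liver marker genes Afp, Alb and Ttr were among 8 endoderm and liver markers of which 0 were called, with 1, again Foxa1, at an unadjusted p under 0.05. Most of these 8 also belong to the list of 13, so they add little to it. Alb lay under the 25th percentile on every array, where a difference could hardly be seen.

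Of 14 genes of cortical neuron identity, the setting in which Cux2 is best known, 3 fell and 0 rose, with a median of -0.08. This count stands beside 4.3% of all genes called lower. Pou3f3, a POU-domain factor, fell by 1.84 from 9.87, 10 and 10.20 to 8.94, 7.61 and 8.01 (limma, Benjamini-Hochberg adjusted p = 0.0081), and its other probe set changed by only -0.02. Lhx2, a LIM homeobox gene, fell by 1.20 from 6.09, 6.52 and 6.81 to 5.01, 5.32 and 5.47 (limma, Benjamini-Hochberg adjusted p = 0.0076). Fezf2 fell by 0.58, from 4.81 to 4.23 on average (Benjamini-Hochberg adjusted p = 0.0238 by limma), and was not called without any one of 5 arrays, labelled-mutant embryo 1 being the exception (0.0517 to 0.0784), nor with the replicate block (0.0713). Reln, which encodes a secreted guidance protein, had a difference of -0.65 that did not pass, although its groups did not overlap (limma, Benjamini-Hochberg adjusted p = 0.0815). Bcl11b and Tbr1 had differences of 0.10 and -0.27 that did not pass. Tbr1 was among 3 genes of this list under the 25th percentile on every array, and the labelled-mutant mean of Fezf2 also lay under that percentile. Of the 14 genes 4 had an unadjusted p under 0.05, all lower. Pou3f3 and Lhx2 kept their calls whichever array was left out, and lost them with floored signals (0.0964 for Pou3f3 and 0.0877 for Lhx2 by limma with Benjamini-Hochberg adjustment). The floor left their own differences unchanged, at -1.84 and -1.20.

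Of 15 chromatin proteins, most of them known partners of Satb1, 1 rose and 0 fell, with a median of -0.01. Baz1a, a subunit of a chromatin remodelling complex, rose by 0.56 from 10.05, 9.60 and 9.93 to 10.46, 10.39 and 10.40 (limma, Benjamini-Hochberg adjusted p = 0.0282). Its other probe set changed by 0.07, and Baz1a was not called with the mean of both (0.351) or without labelled-mutant embryo 1, 2 or 3 (0.0833, 0.0946 and 0.105; limma, Benjamini-Hochberg adjusted). Smarca5, which encodes its partner in that complex, and the acetyltransferase gene Kat2b had differences of 0.14 and -0.23 that did not pass. All 15 lay above the array median on every array, and 1 had an unadjusted p under 0.05 in the downward direction.

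**Figure D5:**
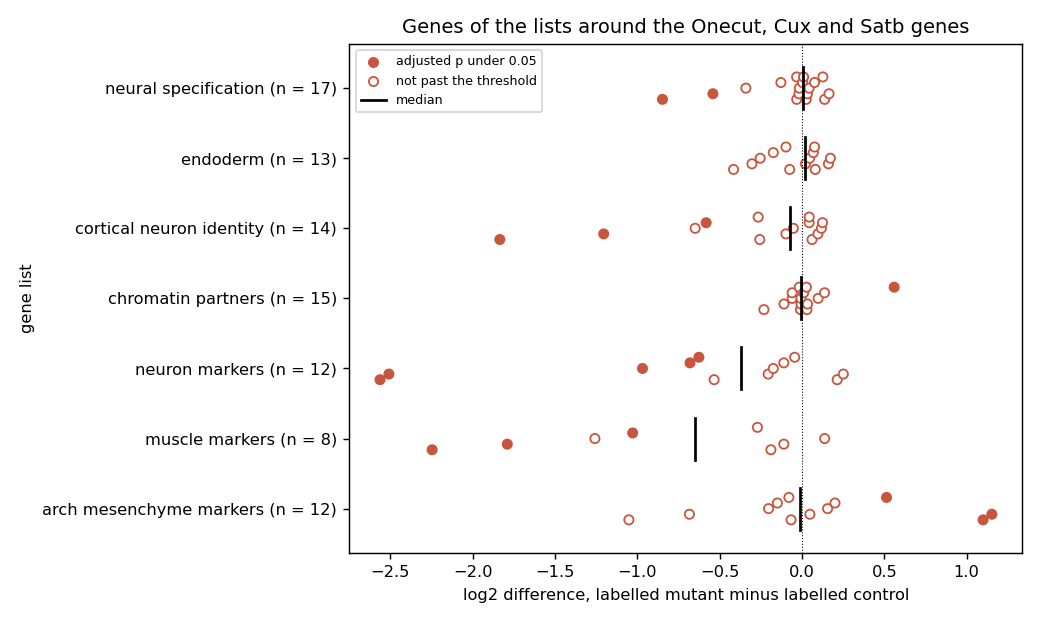
Log2 difference, labelled mutant minus labelled control (horizontal axis), of each measured gene of 7 lists (vertical axis), filled where the adjusted p was under 0.05, with the median of each list as a bar. Neuron markers have their median at -0.37 and muscle markers at -0.65, and the medians of the 5 other lists lie between -0.08 and 0.02.

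Part of the neuron markers fell as well, to be read beside 4.3% of all genes called lower. Of 12 neuron markers 5 fell, 0 rose and 7 were not called, with a median of -0.37, and their summed linear signal was 2370 to 2839 in the labelled-control and 1511 to 1857 in the labelled-mutant arches. The neurofilament genes Nefl and Nefm fell by 2.56 and 2.51, and the neuronal tubulin gene Tubb3 by 0.97 (limma, Benjamini-Hochberg adjusted p = 2.43e-04, 4.25e-04 and 0.0112), Tubb3 not being called without labelled-mutant embryo 3 (0.0551). Gap43 and Syt1, also neuronal, had differences of 0.25 and 0.21 that did not pass, and Snap25 lay under the 25th percentile on every array. The count of 5 became 3 without labelled-control embryo 2 and 2 without labelled-mutant embryo 3 or with floored signals, Nefl and Nefm being called in every alternative. The floor left the differences of Tubb3 and of the other markers called, Stmn2 and Stmn3, unchanged at -0.97, -0.63 and -0.68. Of 8 neural tube markers 2 fell and 0 rose, with a summed signal of 1371 to 2070 against 1228 to 1369, and 1 fell without labelled-control embryo 1 or without any one labelled-mutant embryo. Pax6 was not called on its brightest probe set at 0.16, but its other probe sets reached -2.43, and it was lower and called with the mean of all 5 (-0.49; limma, Benjamini-Hochberg adjusted p = 0.0097).

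Of 8 muscle markers 3 fell, with a median of -0.65 and a summed signal of 1261 to 1799 against 537 to 1035. Those called were the muscle regulator genes Myog (-2.25) and Myod1 (-1.03) and the actin gene Actc1 (-1.79). The other probe set of Myod1 changed by only -0.13. Over 14 alternatives Myod1 lost its call in 9, Actc1 in 10 and Myog in 2. With floored signals 0 of the 8 markers were called, with their differences unchanged for these 3 genes. With the replicate block, the mean of probe sets, trend and robust settings or adjustment over all probe sets there was 1. Without labelled-control embryo 2, 0 of the 8 were called by limma, and without labelled-control embryo 3, labelled-mutant embryo 2 or labelled-mutant embryo 3 there was 1. Of 12 arch mesenchyme markers 3 rose, of 10 epithelium markers 1 rose and of 8 blood markers 1 fell. The mesenchyme genes that rose were Msx1, Msx2 and Hand2. Hand2 was not called without labelled-control embryo 2 or 3 or labelled-mutant embryo 2 or 3. Pax9 (-0.68) and Osr2 (-1.05) were lower at an unadjusted p under 0.05 by limma, but were not called. The groups did not overlap for Pax9 and overlapped for Osr2. The median difference of the 12 mesenchyme markers was -0.01. Without labelled-mutant embryo 1, 2 mesenchyme markers were called lower, and without labelled-control embryo 1 there was 1. The epithelium count was 0 without any array other than labelled-control embryo 3, and 3 without that one. The blood count was 0 without labelled-control embryo 2 or 3 or labelled-mutant embryo 2 or 3, and 2 without labelled-mutant embryo 1. The summed signal of the epithelium markers overlapped between groups, at 4368 to 6784 and 5373 to 5509. None of 6 endothelium markers was called by limma, and 0 had an unadjusted p under 0.05. The counts of markers called stand beside 4.3% of all genes called lower and 1.23% called higher. The part of neural, muscle or other cells in the falls of Onecut2 and Cux2 was not tested.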

How the data were processed

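Total RNA of 6 samples of branchial arch 1 was labelled with biotin for 1-colour Affymetrix arrays (per the labels and the array annotation). The values deposited by the authors are on a log2 scale, inferred from their range of 2.63 to 14.68. All arrays shared the same quantiles, from which it was inferred that they had been brought to 1 common distribution before deposit. How background was corrected and probes were summarised is not given in the sources used here. Of 45101 probe sets 34958 had 1 gene symbol, 932 several and 9211 none. Each of 18194 genes was represented by its probe set with the highest mean, without a filter, and fitted with limma 3.58.1 (R 4.3.3; lmFit, eBayes, two-sided, Benjamini-Hochberg over all genes, no covariate). All probe sets were also fitted together. The procedure was tested on simulated data. The number of arrays limits the precision.

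The members and gene lists were chosen with earlier results of these data known. Named are the members, Onecut3, Ezh2, the sex-linked genes, the 3 genes of each list tied to the members ranked first by absolute moderated t, and the 3 genes most like each member spanning at least 1; marker lists are given mostly by counts. Other genes named as list examples were chosen after their values were seen. Alternatives were a replicate block, further normalization, centring, a floor, a filter on dim genes, the mean of probe sets, trend and robust settings, adjustment over all probe sets and leaving out each array. No array repeated another, with 0.302% to 0.816% of values exactly equal between pairs.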

Additional observations from a re-analysis of the deposited data

How the results depend on the processing

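Over the 14 alternatives (13 for Onecut1, which a filter on dim genes removed) all 5 members kept their direction, and Onecut2 and Cux2 kept their calls throughout, at -2.82 to -1.74 and -1.47 to -0.56. Onecut1 stayed uncalled in every alternative that measured it, at -0.29 to -0.05. Cux1 and Satb1 were called in 1 alternative each, without labelled-control embryo 1, which raised the members called from 2 to 4. With 1 array left out, Onecut2 ranged from -2.82 to -2.43, Cux2 from -1.47 to -1.23, Onecut1 from -0.29 to -0.05, Cux1 from 0.15 to 0.35 and Satb1 from 0.19 to 0.40, and the genes called from 435 to 1021, against 1007. The genes called numbered 657 with the replicate block, 329 with floored signals and 610 with all probe sets adjusted together. The floor also weakened calls of genes well above it: the difference of Cux2 stayed at -1.33, while its SE rose from 0.14 to 0.16. Deviations of same-numbered embryos correlated at -0.21, -0.12 and -0.07, which gave no sign of pairing, though 3 embryos per group cannot exclude it. The block changed no member's call. With it the SE of Onecut2 went from 0.22 to 0.10, while that of Cux2 stayed at 0.14. Signals close to background limit Onecut1, Onecut3 and the labelled-mutant values of Onecut2.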
